A study of Mus musculus with 48 samples.

Results

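Genes that mark resting microglia were followed through all sorted cells of the neurovascular unit (NVU) after experimental stroke. They are *P2ry12*, *P2ry13*, *Tmem119*, *Cx3cr1*, *Sall1*, *Siglech*, *Gpr34*, *Fcrls*, *Olfml3* and *Csf1r*, chosen by name as 10 of the 24973 genes in the deposited table, and each matched 1 row of it. Adult male wild type C57BL/6 mice had undergone transient middle cerebral artery occlusion (tMCAO) of 1 h with reperfusion for 23 h. The ischemic (ipsilateral) and the opposite (contralateral) hemispheres were each dissociated and sorted into microglia (MG), astrocytes (AC), endothelial cells (EC) and pericytes (PC). Every group therefore shared strain, sex, surgery and time, the contralateral hemisphere of the same animals was the control, and no sham-operated group was analysed here. Each of the 8 groups held 6 libraries numbered 1 to 6, each from a pool of 3 to 4 mice, 48 in all. Microglia were gated as CD45low/CD11b+ and the other cells from the CD45-negative fraction, so no lineage tracing separated microglia from blood-derived cells with low CD45.

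Microglia are the resident macrophages of the brain. In the healthy brain they survey the tissue with motile processes and carry a set of surface receptors that distinguishes them from most other macrophages. The set is known to be lowered when microglia become activated, which is why its genes are called homeostatic. Many of the products sense signals from neighbouring cells, among them nucleotides, fractalkine and the growth factors CSF1 and IL-34, and a few regulate transcription or are secreted into the matrix.

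The values are DESeq2-normalized counts rounded to whole numbers, with library sums of 10549900 to 16942165. The steps between low values put the reads counted on genes at about 4900000 to 17100000 a library, with the fewest in ipsilateral microglia of replicate 3. A floor of 3 reads corresponded there to 7.1 normalized counts, which covers counting error only. Sample titles and column names stated opposite cell types in 12 libraries, those of ipsilateral pericytes and ipsilateral microglia, and the column names were used. In the libraries named microglia by their columns, *Csf1r* ranged from 23680 to 106556 normalized counts in the ipsilateral hemisphere, against 0 to 16058 in those named pericytes. The summed pericyte markers *Pdgfrb*, *Des*, *Cd248* and *Cspg4* ranged from 102 to 1865 in the former and from 34058 to 90625 in the latter. The microglia markers outside the 10 genes, *Aif1*, *Cd68* and *Itgam*, had summed counts from 20011 to 65885 in the 12 microglia libraries of both hemispheres.

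In microglia, 7 of the 10 homeostatic genes fell in the ischemic hemisphere and none rose. The purinergic receptor gene *P2ry12* fell most, 3.38-fold on the scale of log2(normalized count + 1), followed by *Tmem119* (3.04-fold), *Siglech* (3.02-fold), *Gpr34* (2.65-fold) and *Sall1* (2.57-fold), and then *Csf1r* (2.15-fold) and *P2ry13* (2.08-fold). *Cx3cr1*, *Olfml3* and *Fcrls* did not pass the test. A gene was called when its limma p, adjusted by Benjamini-Hochberg over all genes tested, was 0.05 or less, the change was at least 1.5-fold, and every replicate of at least 1 hemisphere had more than 10 normalized counts. Of the 13300 genes tested in microglia, 6.27% were called lower and 4.29% higher. Calls that were lower made up 59.4% of all calls, 50.9% after rescaling by median ratios and 39.8% after rescaling to equal medians, where 6 of the 10 genes were still called. The median log2 change of the 10 genes was -1.23, against -0.18 for all genes tested. Equal replicate numbers were taken to tie both hemispheres to the same pooled mice, which the sample titles do not state. The test was therefore repeated with the replicate as a block, which called 8 of the 10 genes lower, *Cx3cr1* being added. With the block, 6.50% of all genes were called lower. The summed counts of the 10 genes made up 2.66% to 3.73% of the normalized counts of contralateral and 0.797% to 2.74% of ipsilateral microglia libraries, the lowest share being that of replicate 2. A lower level can come from fewer cells that express a gene or from less RNA per cell, and bulk libraries cannot tell them apart.

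**Figure D1:**
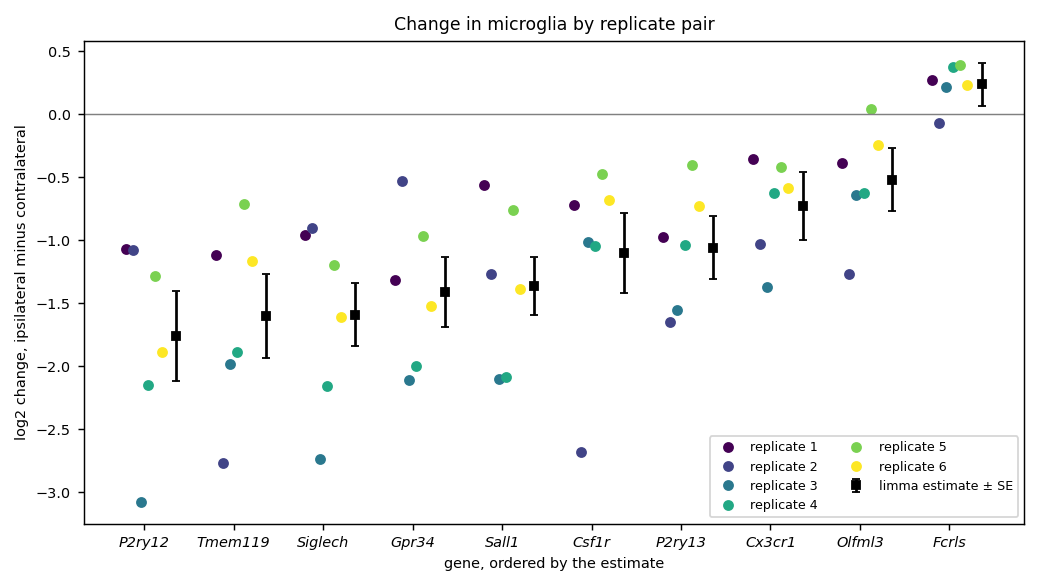
Log2 change of each gene in microglia, ipsilateral minus contralateral, for the 6 replicate pairs (coloured points) with the limma estimate and its standard error (black squares). All 6 points lie below 0 for 8 of the genes, 5 of 6 for *Olfml3*, and 1 of 6 for *Fcrls*.

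The P2Y receptors sense nucleotides that injured cells release. *P2ry12*, encoding the receptor that directs microglial processes towards ADP and ATP, lies on the minus strand of chromosome 3 from 59216272 to 59262871 (GRCm38). Contralateral microglia had from 18947 to 36074 normalized counts (median 31289) and ipsilateral microglia from 3372 to 16293 (median 10624). The groups did not overlap, and the lowest ipsilateral values were those of replicates 3 and 4. The log2 change was -1.76 (standard error, SE, 0.36; n = 6 per hemisphere, limma adjusted p = 0.00711, 0.00465 with the block), and within pairs the ipsilateral library kept from 11.9% to 47.7% of the contralateral level. *P2ry13*, a related ADP receptor, lies next to it from 59207892 to 59210882 on the same strand, and both genes stand within the span of *Med12l* on the opposite strand. It went from 16523 to 24077 (median 19811) in contralateral to 5665 to 15692 (median 10150) in ipsilateral microglia. These ranges did not overlap either. The log2 change of *P2ry13* was -1.06 (SE 0.25, adjusted p = 0.0161 by limma, 0.00953 with the block), and 31.9% to 75.5% was left. The call of *P2ry13* was lost without replicate 3 or without replicate 4 (adjusted p = 0.0604 and 0.0573 by limma).

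RefSeq promoter windows were found for 7 of the 10 genes. The 250 bases before the start site are printed for this neighbouring pair, of which both genes fell, and for *Olfml3*, which did not pass the test, 5′ to 3′ on the strand of the gene (GRCm38.p6). Capitals mark GAGGAA, the core of the site bound by PU.1, a factor that macrophage lineages depend on. The windows are chr3:59262986-59263235, chr3:59210883-59211132 and chr3:103738002-103738251, all on the minus strand.
P2ry12: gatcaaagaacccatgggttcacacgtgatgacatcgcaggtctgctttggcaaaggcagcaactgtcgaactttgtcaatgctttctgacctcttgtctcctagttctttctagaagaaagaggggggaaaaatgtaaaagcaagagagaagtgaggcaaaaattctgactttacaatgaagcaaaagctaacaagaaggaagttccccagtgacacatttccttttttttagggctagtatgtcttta
P2ry13: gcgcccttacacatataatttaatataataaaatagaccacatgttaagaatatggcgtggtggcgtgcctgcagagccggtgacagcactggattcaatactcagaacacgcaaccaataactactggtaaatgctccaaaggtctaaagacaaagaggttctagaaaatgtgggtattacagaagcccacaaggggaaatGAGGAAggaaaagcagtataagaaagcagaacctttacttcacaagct
Olfml3: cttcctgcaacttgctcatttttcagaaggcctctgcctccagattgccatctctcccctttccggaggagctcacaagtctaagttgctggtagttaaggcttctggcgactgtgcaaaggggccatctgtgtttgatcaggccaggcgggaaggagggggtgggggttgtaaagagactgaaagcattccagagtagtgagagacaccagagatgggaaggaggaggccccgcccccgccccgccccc
Searched on both strands, GAGGAA was found in 2 of the 7 genes with a window, *P2ry13* (48 bases before the start) and *Fcrls* (144 bases before it), and in 25.9% of 27025 genes of the RefSeq table. The AP-1 site TGANTCA was in none of the 9 windows of these 7 genes and in 7.82% of genes. The motif was present in *P2ry13*, which fell, and in *Fcrls*, which did not pass the test, and such a match is a run of letters, not a measured binding site.

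*Tmem119* and *Siglech* encode surface proteins used to identify microglia, and *Gpr34* a receptor for lysophosphatidylserine. *Tmem119* (chromosome 5, 113793729 to 113800516) had from 45990 to 61086 normalized counts in contralateral microglia (median 52744) and from 7119 to 34036 in ipsilateral ones (median 19110). It fell by 1.6 on the log2 scale (SE 0.33, limma adjusted p = 0.0065, 0.00663 with the block). Replicate 2 kept least, 14.7%, and replicate 5 most, 61.1%. *Siglech* (chromosome 7, 55768184 to 55778833), a member of the sialic acid-binding lectins, went from a range of 14431 to 18714 (median 16372) to 2811 to 7719 (median 6598), a log2 change of -1.59 (SE 0.25). Its adjusted p was 0.00158 by limma and 0.00546 with the block, the former being the smallest of the 10 genes without the block. *Gpr34* (chromosome X, 13632089 to 13640858) had from 14185 to 24032 (median 19448) and then from 3554 to 11262 (median 8545), a log2 change of -1.41 (SE 0.28, limma adjusted p = 0.00585, 0.00563 with the block). None of these genes had an ipsilateral library above its lowest contralateral library.

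*Sall1*, encoding a zinc finger transcription factor needed to maintain microglial identity, was the least abundant of the 10 genes. It lies on chromosome 8 from 89027235 to 89044162. Its counts ranged from 2334 to 3113 in contralateral (median 2358) and from 556 to 1678 in ipsilateral microglia (median 936), without overlap, with a log2 change of -1.36 (SE 0.23, limma adjusted p = 0.00265, 0.00738 with the block). Of 16 other transcription factors known from microglia, 6 fell and none rose, with a median log2 change of -0.66, and 8 fell with the block, *Runx1* and *Mef2a* being added. Over all genes tested, 6.27% were called lower and 4.29% higher, and 6.50% lower with the block. *Mef2c* fell by 0.83 (SE 0.17, limma adjusted p = 0.00656), *Sall3*, a relative of *Sall1*, by 0.82 (SE 0.18, adjusted p = 0.0112 by limma), *Ikzf1* by 0.92 (SE 0.22, limma adjusted p = 0.0147) and *Maf* by 1.19 (SE 0.30, limma adjusted p = 0.021). *Spi1*, encoding PU.1, did not pass, at -0.19 (SE 0.14, limma adjusted p = 0.374), nor did *Irf8*, at -0.46 (SE 0.22, limma adjusted p = 0.191).

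*Csf1r*, encoding the receptor tyrosine kinase on which microglia depend for survival, had the highest counts of the 10 genes. It lies on chromosome 18 from 61105572 to 61132149, and 15.1% of its exon bases are shared with other annotated genes, where reads were not counted. Contralateral microglia had from 112570 to 151572 normalized counts (median 139426) and ipsilateral microglia from 23680 to 106556 (median 71845). The groups did not overlap, but replicate 2 stood apart, with 15.6% of the contralateral level left against 48.3% to 72.0% in the other pairs. The log2 change was -1.10 (SE 0.32, limma adjusted p = 0.0375, 0.0401 with the block), and -0.79 without replicate 2 (adjusted p = 0.0202 by limma). The call was lost when replicate 1, 3, 4 or 6 was left out, with adjusted p (limma) from 0.0676 to 0.111. *Cx3cr1*, encoding the fractalkine receptor (chromosome 9, 119901616 to 120069879), ranged from 47248 to 85485 (median 64048) and from 23366 to 63809 (median 39686), so that the groups overlapped although all 6 pairs were lower. Its log2 change was -0.73 (SE 0.27, limma adjusted p = 0.0895, 0.0433 with the block).

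Of 14 ligands and signalling partners of these receptors, 1 rose in microglia and none fell, where 4.29% of all genes tested were called higher and 6.27% lower. Their median log2 change was -0.20, against -0.18 for all genes tested. With the block *Tgfbr2* was called lower as well (-0.67, limma adjusted p = 0.0345 with the block, 0.0559 without it). *Csf1*, the ligand of the receptor encoded by *Csf1r*, rose from 1983 ± 885 to 3368 ± 777 normalized counts (SD, n = 6), by 0.83 on the log2 scale (SE 0.25, limma adjusted p = 0.0422). *Il34* and *Cx3cl1* were low, at no more than 73 and 85 normalized counts in any microglia library. *Tgfb1*, a growth factor known to sustain the homeostatic state, had a log2 change of -0.81 (SE 0.44, limma adjusted p = 0.236). Its receptor gene *Tgfbr1*, from the list of further microglia-enriched genes, fell by 1.06 (SE 0.19, limma adjusted p = 0.00279).

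*Fcrls* and *Olfml3*, like *Cx3cr1*, did not pass the test between hemispheres. *Fcrls*, an Fc receptor-like scavenger receptor gene (chromosome 3, 87250758 to 87263599), had from 28644 to 36513 normalized counts (median 32424) in contralateral and from 29187 to 47962 (median 38450) in ipsilateral microglia. Its log2 change was 0.24 (SE 0.17, limma adjusted p = 0.378), and the ipsilateral library was higher in 5 of 6 pairs, with 95.6% to 131% of the contralateral level. *Olfml3*, encoding a secreted olfactomedin-like matrix protein (chromosome 3, 103731665 to 103738001), ranged from 16718 to 27087 (median 23168) and from 9251 to 27887 (median 15910). Its log2 change was -0.52 (SE 0.25, limma adjusted p = 0.191), with 41.4% to 103% left. When the genes were ordered by their mean change over pairs, none of the 9 steps between neighbours passed an exact test after adjustment, which a single step cannot do with 6 pairs. The largest step was from *Olfml3* to *Fcrls*, 0.76 on the log2 scale, positive in 6 of 6 pairs (exact sign-flip permutation test, two-sided p = 0.0312, the smallest that 6 pairs allow, adjusted p = 0.281 over 9 comparisons). The other 8 steps had exact p from 0.0625 to 1.00 in the same test.

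All ipsilateral libraries lay below all contralateral ones for 7 of the 10 genes, and for 4.78% of all genes tested. The pairs differed in size of change. The median log2 change over the 10 genes was -1.77 in replicate 3 and -1.47 in replicate 4, against -0.59 in replicate 5. Replicate 3 had the lowest percentage left for *P2ry12*, *Cx3cr1*, *Sall1*, *Siglech* and *Gpr34*, and replicate 2 for *P2ry13*, *Tmem119*, *Fcrls*, *Olfml3* and *Csf1r*. In a description over the 12 microglia libraries, each gene was set against the mean of the other 9. Pearson's r ranged from 0.82 for *Gpr34* to 0.97 for *P2ry13* and *Cx3cr1*, except for *Fcrls*, with -0.16. Within the 6 contralateral libraries r was 0.86 for *Fcrls* and within the 6 ipsilateral ones 0.65, and the points share library preparation and scaling. Within hemispheres r ranged from -0.17 (*Sall1*, contralateral) to 0.98.

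**Figure D2:**
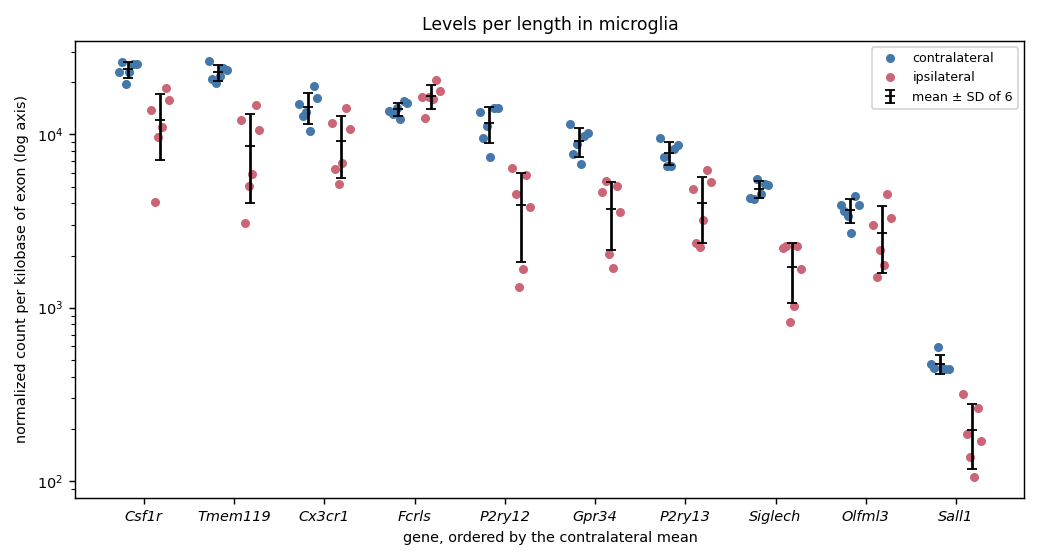
Normalized counts per kilobase of exon in microglia on a log axis, by hemisphere (points are libraries, bars the mean ± SD of 6). *Csf1r* and *Tmem119* stood highest in contralateral microglia and *Fcrls* in ipsilateral microglia, while *Sall1* was lowest in both.

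Levels can be compared between genes only per length. Per kilobase of exon, mean levels in contralateral microglia were highest for *Csf1r* (23742 ± 2542 normalized counts per kilobase, SD, n = 6) and *Tmem119* (22797 ± 2384), within their spread at this length. Lengths are the union of all annotated exons. For *Csf1r* they include the 15.1% of bases where reads were not counted, so its level is understated and whether it equals that of *Tmem119* cannot be told. *Cx3cr1* (14494 ± 2937), *Fcrls* (14000 ± 1281) and *P2ry12* (11644 ± 2769) followed, again within the spread of their neighbours. *Gpr34* had 9142, *P2ry13* 7844, *Siglech* 4835 and *Olfml3* 3654 per kilobase. *Sall1* stood far below at 474 ± 58.1, rank 1235 of 24922 genes, whereas the other 9 genes held ranks from 19 to 133. In ipsilateral microglia the highest level per kilobase was that of *Fcrls*, 16633 ± 2622, and that of *Csf1r* was 12155 ± 5069.

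Of 29 further genes enriched in microglia, 11 fell and none rose, with a median log2 change of -0.63. Over all genes tested in microglia, 6.27% were called lower and 4.29% higher. With the block 11 fell and 1 rose, *Gpr84* (0.88, limma adjusted p = 0.0281 with the block, 0.0651 without it). *Slc2a5*, encoding a fructose transporter, fell by 2.11 (SE 0.37, limma adjusted p = 0.00278), *Selplg*, encoding the P-selectin ligand, by 1.78 (SE 0.27, limma adjusted p = 0.00124), *Entpd1*, encoding the ectonucleotidase CD39, by 1.58 (SE 0.23, adjusted p = 0.00101 by limma) and *Cd33* by 1.25 (SE 0.19, limma adjusted p = 0.00138). The complement genes *C1qa*, *C1qb* and *C1qc* did not pass, at -0.58, -0.27 and -0.33 (limma adjusted p from 0.0551 to 0.519). Of 18 genes known from activated microglia, 9 rose and 1 fell, with a median of 0.96. *Spp1*, encoding osteopontin, rose by 5.68 (SE 0.46, limma adjusted p = 5.8e-06), *Lgals3*, encoding galectin-3, by 5.13 (SE 0.43, limma adjusted p = 6.8e-06), *Lpl*, encoding lipoprotein lipase, by 3.88 (SE 0.26, adjusted p = 1.4e-06 by limma) and *Cst7*, encoding cystatin F, by 2.03 (SE 0.28, limma adjusted p = 0.000638). The gene that fell was *Apoe* (-0.69, SE 0.20, limma adjusted p = 0.0349). *Tnf*, *Il1b*, *Ccl3* and *Ccl4* did not pass, at 0.20, 0.05, 0.20 and 0.54.

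**Figure D3:**
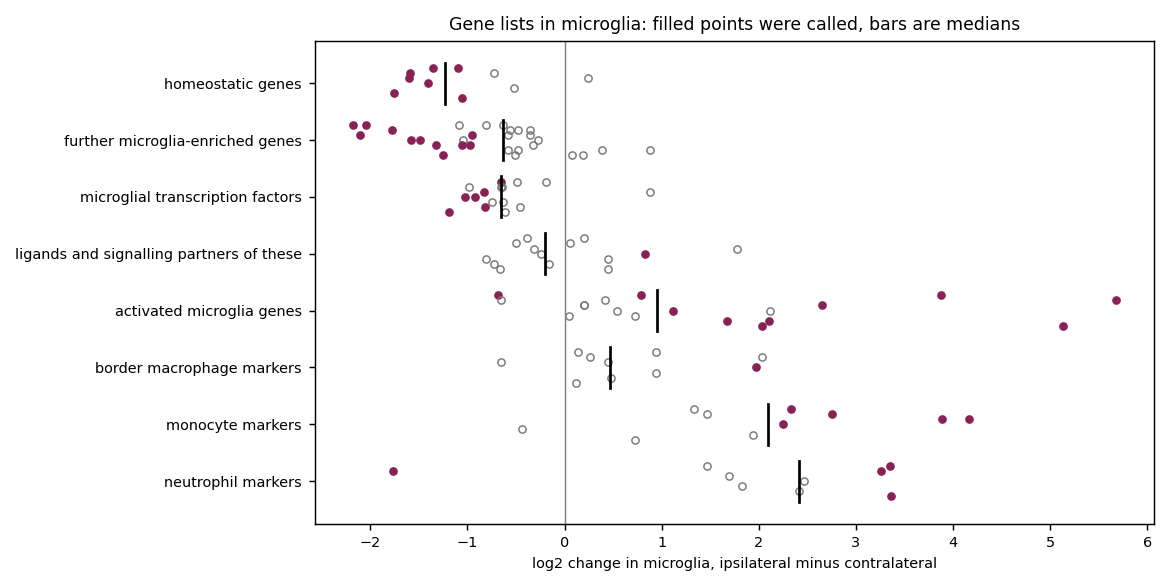
Log2 change in microglia (ipsilateral minus contralateral) of every tested gene in 8 lists, with called genes filled and the median of each list as a bar. The medians were -1.23 for the homeostatic genes, -0.63 for further microglia-enriched genes, 0.96 for activated microglia genes and 2.41 for neutrophil markers.

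Several monocyte and neutrophil markers differed between hemispheres in the same libraries, where 4.29% of all genes tested were called higher and 6.27% lower. Of 10 monocyte markers, 5 rose and none fell, among them *Fn1* by 2.25 (SE 0.34, limma adjusted p = 0.00138) and *Chil3* by 2.75 (SE 0.58, limma adjusted p = 0.008), while *Ccr2*, a defining marker, did not pass at 1.33 (limma adjusted p = 0.0591). Their summed counts ranged from 418 to 1725 in contralateral and from 2224 to 5757 in ipsilateral microglia, or 0.00362% to 0.0138% and 0.0179% to 0.0492% of all normalized counts. Of 9 neutrophil markers tested, 3 rose (*S100a8*, *S100a9* and *Retnlg*, by 3.35, 3.26 and 3.36) and 1 fell (*Csf3r*, by 1.77, from 6746 ± 752 normalized counts in contralateral microglia). The defining marker *Ly6g* was at 0 in all contralateral and at no more than 6 normalized counts in ipsilateral microglia. Summed neutrophil markers stood highest in ipsilateral replicate 2, with 19565 against 4593 to 7154 in the other 5 ipsilateral and 6478 to 8215 in the contralateral libraries, and *S100a8* reached 9831 there. This sum holds *Csf3r*, whose mean was 6746 in contralateral and 2192 in ipsilateral microglia. *S100a8* ranged from 20 to 534 in contralateral and from 571 to 9831 in ipsilateral libraries, and *S100a9* from 26 to 251 and from 543 to 5263, neither with overlap. Of 10 border macrophage markers, 1 rose (*Clec4n*, by 1.97) and none fell, *Pf4* was called higher as well with the block (2.03, limma adjusted p = 0.0116 with the block, 0.0852 without it), and *Mrc1* had 342 ± 152 and 351 ± 137 normalized counts (SD, n = 6). No lymphocyte marker reached a mean of 10, with summed counts of at most 37 over the 7 markers in the table. Of 4 astrocyte markers, 1 fell (*Slc1a3*, by 1.62), and the summed counts of all 4 ranged from 2851 to 3616 in contralateral and from 958 to 1432 in ipsilateral microglia. *Slc1a3* made up most of this sum, with means of 2900 and 978. *Gfap*, *Aldh1l1* and *Aqp4* had means of at most 106 in either hemisphere and were not called. No endothelial, pericyte, oligodendrocyte lineage or neuronal marker was called among the 4, 4, 7 and 3 tested, and their summed counts reached at most 2305, 1865, 8608 and 306. In ipsilateral microglia, replicate 2 had the most neutrophil marker counts and replicate 3 the fewest reads. Leaving both replicates out, a subset chosen after seeing the data, left 7 of the 10 homeostatic genes called lower. There, 592 of 13220 genes tested were called lower. The ipsilateral libraries kept in this subset also had more *S100a8* and higher summed monocyte markers than any contralateral library. The subset therefore cannot tell the part of other cells in the microglial changes, which was not tested.

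Each of the 10 genes was higher in contralateral microglia than in each of the other contralateral cell types. In a limma fit of all 48 libraries, 10 of 10 were called above endothelial cells, 10 of 10 above pericytes and 10 of 10 above astrocytes, where 22.2%, 24.7% and 19.3% of 15003 genes were called higher. Log2 differences ranged from 5.93 to 7.30 against endothelial cells and from 5.74 to 10.62 against pericytes. Against astrocytes they ranged from 5.27 to 6.96 for 9 of the genes, whereas *Sall1* differed by 2.19 (SE 0.85, limma adjusted p = 0.0277). The *Sall1* call against astrocytes was lost with a pseudocount of 0.1 and without replicate 1, 3 or 4. Its counts did not overlap, at 2334 to 3113 in contralateral microglia and 385 to 635 in contralateral astrocytes. The standard error in this fit rests on a spread shared with the other cell types. Among them, *Sall1* ranged from 2 to 377 in contralateral endothelial cells and from 13 to 127 in contralateral pericytes.

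**Figure D4:**
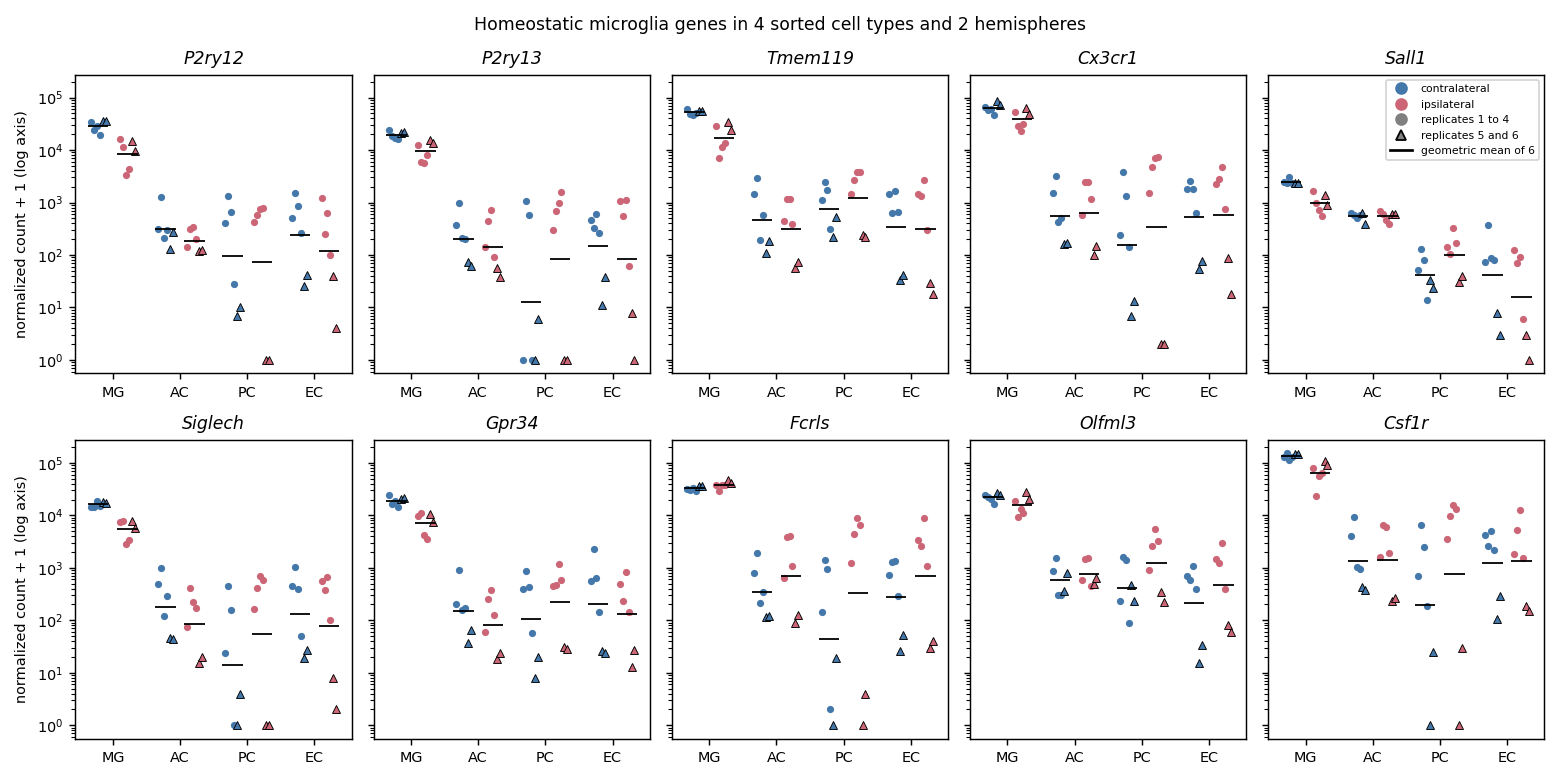
Normalized counts plus 1 (log axis) of the 10 genes in microglia (MG), astrocytes (AC), pericytes (PC) and endothelial cells (EC), by hemisphere, with replicates 5 and 6 as triangles and geometric means of 6 libraries as bars. All microglia libraries stand above all other libraries for 9 of the genes, while for *Sall1* ipsilateral microglia and astrocytes overlap, and outside microglia most triangles lie below the circles.

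Outside microglia, the level of the 10 genes depended on the replicate number. Expressed as a percentage of the microglia library of the same replicate and hemisphere, the median over the 10 genes was 1.38% to 21.5% in endothelial cells of replicates 1 to 4 and 0.0521% to 0.126% in replicates 5 and 6. In pericytes the ranges were 0.222% to 27.9% and 0.000784% to 0.0378%, and in astrocytes 0.793% to 11.2% and 0.2% to 0.315%. Both hemispheres are pooled in these ranges, and the upper ends were ipsilateral in replicates 1 to 4. No contralateral library there exceeded 4.41% (endothelial cells), 5.38% (pericytes) or 6.09% (astrocytes). The divisor, ipsilateral microglia, was itself lower for 7 of the 10 genes, which raises ipsilateral percentages. How much of the hemisphere difference this makes up was not tested. By this median, all libraries of replicates 5 and 6 stood below all those of replicates 1 to 4 of the same cell type. The labels name no batch, and whether the numbers mark one cannot be told. In pericytes of replicates 5 and 6, *P2ry12* was at 0 to 9 normalized counts, *P2ry13* at 0 to 5, *Siglech* at 0 to 3, *Cx3cr1* at 1 to 12 and *Csf1r* at 0 to 29, a range that includes values at or below the floor of 3 reads. The microglia markers outside the 10 genes varied with them, from a summed 19 to 9011 normalized counts over the 12 pericyte libraries.

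Some genes stood above the others outside microglia as a percentage of their microglial level. *Sall1* had from 385 to 635 normalized counts in contralateral and from 392 to 677 in ipsilateral astrocytes, with 385 to 617 in replicates 5 and 6. It was the gene with the highest percentage of its microglial level in 12 of 12 astrocyte libraries, at 16.2% to 70.5%, where the median over the 10 genes reached 11.2% at most. In ipsilateral astrocytes of replicates 4 and 6 that percentage was 70.5% and 68.3%. *Sall1* in microglia, the divisor here, had a median of 936 normalized counts in the ipsilateral hemisphere and 2358 in the contralateral one. Between hemispheres, *Sall1* in astrocytes went from 578 to 392 normalized counts in replicate 4 and from 385 to 609 in replicate 6, the pairs with the lowest and the highest change (-0.56 and 0.66 on the log2 scale). Over all 6 pairs of astrocytes the log2 change was 0.01 (SE 0.18, limma adjusted p = 0.992). In pericytes of replicates 5 and 6, *Olfml3* was at 218 to 478, *Tmem119* at 216 to 532 and *Sall1* at 22 to 39 normalized counts, which was 0.954% to 1.76%, 0.396% to 0.97% and 0.943% to 4.37% of microglia. The highest median over the 10 genes in these libraries was 0.0378%. *Olfml3* was also at 366 to 793 in astrocytes of replicates 5 and 6, or 1.35% to 3.30%, against 14 to 79 in endothelial cells. Contralateral astrocyte libraries also held RNA of other cells. Their 8 oligodendrocyte lineage markers had a median sum of 191180 normalized counts, against 85602 for the 4 astrocyte markers. Which cells the counts of *Sall1*, *Olfml3* and *Tmem119* outside microglia came from was not tested.

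**Figure D5:**
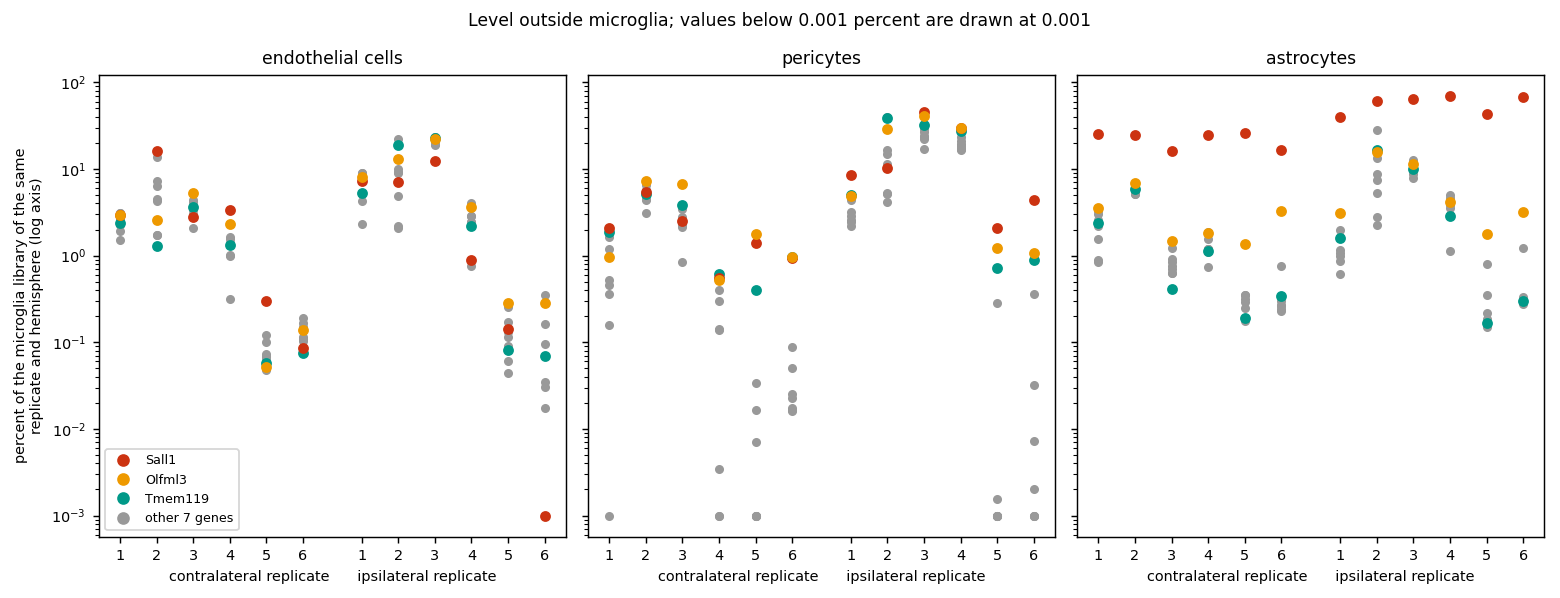
Level of each gene outside microglia as a percentage of the microglia library of the same replicate and hemisphere (log axis), with values below 0.001% drawn at 0.001%. *Sall1* (red) stood between 16.2% and 70.5% in all astrocyte libraries, and *Olfml3*, *Tmem119* and *Sall1* stood above the other genes in pericytes of replicates 5 and 6.

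No homeostatic gene was called between hemispheres outside microglia. In endothelial cells, pericytes and astrocytes 0 of 10 were called by limma, with 0 at an unadjusted p under 0.05, where 0.491%, 1.02% and 0.341% of all genes tested were called in either direction. With the replicate block the number called was again 0 in each, with an unadjusted p under 0.05 for 2 of 10 genes in each cell type, and the smallest adjusted p (limma) was 0.173, for *Olfml3* in endothelial cells, where the ipsilateral library was higher in 6 of 6 pairs with a log2 change of 1.13 (SE 1.20 without the block). Standard errors were large, from 0.70 to 2.58 in pericytes, where replicates 1 to 4 and replicates 5 and 6 differed in level. In pericytes of replicate 4, the summed counts of the 10 genes were 822 in the contralateral and 37876 in the ipsilateral library, while in replicates 5 and 6 they were 751 and 873 against 643 and 533.

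The stroke change in microglia was compared with that in each other cell type by an interaction contrast in the fit of 48 libraries. None of the 10 genes was called different from endothelial cells, pericytes or astrocytes, where 0.273%, 0.727% and 0.293% of genes were called. An unadjusted p under 0.05 was reached in 1 of these 30 contrasts, for *Sall1* against pericytes (-2.59, SE 1.20, limma adjusted p = 0.355). The standard errors of these differences ranged from 1.20 to 2.44, so that a change confined to microglia could not be shown for any of the 10 genes with this fit. For each gene the fit uses a spread shared by all cell types. In the separate fits, standard errors were 0.17 to 0.36 in microglia. In astrocytes they were 0.18 for *Sall1* and 0.44 to 0.99 for the other genes. There *Sall1* changed by -1.36 (SE 0.23) in microglia and by 0.01 in astrocytes, a difference not tested with these spreads.

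Genes with the most similar pattern were ranked by Pearson's r with the mean z-score of the 10 genes, as a description. Over the 12 microglia libraries, the 10 highest of 8747 genes outside the set were *Tmem50b* (0.979), *Nfkb1* (0.97), *Slc2a5* (0.97), *Nrip1* (0.969), *C5ar2* (0.966), *Pld4* (0.966), *Ppfia4* (0.964), *Bank1* (0.962), *Atp8a2* (0.961) and *Lpcat2* (0.959). All 10 fell in ipsilateral microglia, by 0.76 for *Tmem50b* to 2.39 for *Atp8a2* on the log2 scale. Most of the homeostatic genes fell in the same libraries, so ranking by r selects genes that fall, and this direction is no separate result. Over all 48 libraries, *Pld4*, *Il10ra*, *Trem2* and *Selplg* were among the highest of 10436 genes, with r from 0.972 to 0.977, over points that include microglia and the other cells.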

How the data were processed

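Libraries were made with a SMART-Seq kit from 4 sorted cell types of both hemispheres, 6 per group. The authors trimmed reads (Trimmomatic 0.38), aligned them to GRCm38 (STAR 2.6.1d), counted them on exons without those overlapping several genes or places (featureCounts 1.6.3) and normalized the counts with DESeq2 1.18.1. The deposited table gives the result as whole numbers, treated here as a score with no fixed unit, so no count model was run.

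Everything else was computed here from that table. For each cell type, ipsilateral libraries were set against contralateral ones by limma 3.58.1 (R 4.3.3, lmFit and eBayes with a trend, two-sided) on log2(normalized count + 1), with genes below a mean of 10 over the 12 libraries left out. Contrasts between cell types came from 1 limma fit of 48 libraries. The +1 understates changes of low genes. Same-numbered hemispheres were taken to come from the same pooled mice. Deviations of same-numbered libraries correlated by 0.227, 0.227, 0.38 and 0.135 on average in endothelial cells, pericytes, astrocytes and microglia, against -0.039, -0.045, -0.076 and -0.026 for other numbers. The scripts were tested on simulated data. Exon lengths are from GENCODE M21, promoter windows from RefSeq. Permutation tests and plots used numpy 2.4.6, matplotlib 3.10.9 and pandas 2.3.3 under Python 3.11.15.

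The 10 genes and all gene lists were chosen with earlier results of these data known. Named were the 10 genes, defining markers, up to 4 called genes of smallest p per list in microglia, and the genes of most similar pattern (mean of at least 100). *Med12l*, *Gpr84*, *Runx1*, *Mef2a*, *Tgfbr2*, *Pf4*, *Tgfbr1*, *Tgfb1*, *Il34*, *Cx3cl1*, *C1qa*, *C1qb*, *C1qc*, *Spi1*, *Irf8*, *Tnf*, *Il1b*, *Ccl3* and *Ccl4* are outside this rule and were named after their values were seen. Some results of the wider gene lists are not reported here. Alternatives were other pseudocounts, filters and scalings, the replicate block, a joint fit, subsets of replicates, and the cell types of the sample titles.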

Additional observations from a re-analysis of the deposited data

Results flagged for a closer look

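A library stood apart from the other 5 of its group, with a gap to the nearest exceeding Dixon's 95% critical value, in 8 of the 80 groups of 6 formed by 10 genes, 4 cell types and 2 hemispheres. Chance flags about 1 in 20 groups of normally distributed values, and the genes share libraries. The counts were used without logs, where widely spread values can raise flags of the highest, so the rate here is not known. All 8 are the highest value of a contralateral group, and 7 are replicate 2 outside microglia. In contralateral astrocytes, replicate 2 had 1250 normalized counts of *P2ry12* (others 127 to 307), 980 of *P2ry13* (60 to 370) and 923 of *Gpr34* (36 to 205). In contralateral endothelial cells it had 377 of *Sall1* (2 to 86) and 2235 of *Gpr34* (23 to 625). In contralateral pericytes it had 3772 of *Cx3cr1* (6 to 1301) and 448 of *Siglech* (0 to 156). The only value within microglia was *Sall1* in contralateral replicate 3, at 3113 against 2334 to 2478 in the others. Without replicate 3 the log2 change of *Sall1* in microglia was -1.21, against -1.36 with all 6.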

How the results depend on the processing

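Of 14 counts over the 10 genes, 232 of 234 values under the alternatives stayed within 1.5 times the reported count. Except for the 7 called lower in microglia, these counts lay at an end of their range, 0 or 10 of 10. The tally therefore says little about single genes, whose calls varied more. In the joint fit of 48 libraries, 0 of the 10 genes were called lower in microglia in place of 7, with limma adjusted p from 0.387 to 0.967. Estimates were the same there, and standard errors grew (for *P2ry12* from 0.36 to 1.39) because the spread is shared with the other cell types. With the cell types of the sample titles, 10 genes were called higher in pericytes in place of 0, and *Fcrls* in microglia went to -6.63. *P2ry12*, *Tmem119*, *Sall1*, *Siglech* and *Gpr34* lost their calls in the joint fit only, of 20 alternatives each, and apart from the titles their log2 changes ranged from -1.89 to -1.49, -1.94 to -0.94, -1.52 to -1.07, -1.73 to -1.37 and -1.58 to -1.24. *P2ry13* lost its call in 4 and *Csf1r* in 10 of 20. The titles are among these 20 and set contralateral microglia against libraries named pericytes by their columns. A call lower could not be lost there, so that alternative is no check of these calls. With the replicate block, 8 genes were called lower in microglia in place of 7, and no call of the 10 genes was lost. With replicates 5 and 6 alone, *P2ry13* was at -0.57 and *Csf1r* at -0.58, and neither was called. The subsets of replicates 1 to 4 with the block and of replicates 1, 4, 5 and 6 were chosen after seeing the data. Rescaling to equal medians moved the median of all genes in microglia from -0.18 to -0.02 and the share of calls that were lower from 59.4% to 39.8% (50.9% by median ratios). All of the 10 genes kept their direction under both scalings, *P2ry12* at -1.59 and *Fcrls* at 0.41, and *Csf1r* at -0.93 was no longer called. Over all microglial genes, calls lower numbered 834, and 493, 297, 338 and 494 without replicates 1, 3, 4 and 6, 442 and 361 with replicates 1 to 4 and 5 and 6 alone, 280 with replicates 1 to 4 and the block, 417 in the joint fit and 3276 by the titles. The *Sall1* call above astrocytes had limma adjusted p from 0.0262 to 0.0665 in the leave-outs. Rounded values hide differences of under 1 normalized count, and levels in pericytes near the floor of 3 reads carry no ratio.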
